A study of Sus scrofa with 12 samples.

Results

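The genes described here code for the proteasome, its activators, its inhibitor and its assembly factors in porcine granulosa cells, the somatic cells that surround and nourish the oocyte in the ovarian follicle. Members were the genes of the deposited expression table whose symbol begins with PSM, a letter from A to G and a number. Of 18060 genes listed, 44 met that rule, and 42 of these are parts of the proteasome system. The remaining members, PSMC3IP and PSME3IP1, have symbols that begin with the same letters but are not counted as parts. They are included in the counts of members, and their values are described apart. Primary cells from antral follicles of mature sows, a cross of Duroc, Yorkshire and Landrace, spent 12 h at 21% O2 (normoxia) or at 1% O2 (hypoxia), both with 5% CO2. There were 3 biological replicates per condition. From each, fragmented poly(A) RNA was sequenced as input and after pull-down with an antibody against N6-methyladenosine (m6A), a methyl mark on mRNA, which makes 12 libraries. The labels do not say whether the replicates came from separate sows, so the p-values measure the spread between these libraries, which may be partly technical.

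The proteasome is the main protease for proteins tagged with ubiquitin. Its core particle is a barrel of stacked rings, in which alpha subunits (PSMA) form the outer, gated rings and beta subunits (PSMB) the inner rings that hold the active sites. The regulatory particle caps the barrel: a ring of ATPases (PSMC) with large scaffold subunits forms the base that unfolds substrates, and the lid (other PSMD subunits) removes ubiquitin. Other caps (PSME) open the barrel without ubiquitin, PSMF1 inhibits it, and dedicated chaperones (PSMG, PSMD5, PSMD9, PSMD10) assemble the particles. In granulosa cells, ubiquitin and the proteasome take part in the turnover of cell-cycle regulators, of steroidogenic proteins and, when oxygen is ample, of the alpha subunits of the hypoxia-inducible factors.

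Most proteasome genes had less mRNA in hypoxia, and a single activator gene had far more. Of 43 members tested with limma on log2(FPKM + 1), 23 were lower in hypoxia and 1, PSME2, was higher at an adjusted p under 0.05, while 19 did not pass; over all 10196 tested genes the shares were 21.1% lower and 5.4% higher. FPKM are fragment counts scaled by transcript length and library size. The median log2 fold change of the tested members was -0.79, against -0.26 over all tested genes, a difference of -0.52. The members were the more abundant, with a median normoxia FPKM of 30.8, beside 6.68 over all tested genes. The log2(FPKM + 1) scale understates the change of low genes, and the part of level in that difference was not tested. The fold change was below 0 for 41 of the 43, beside 72.2% of all tested genes. It was below 0 for 34 of the 43 after a median-ratio scaling that moved the median of all genes to -0.02. The share of all tested genes below 0 after scaling is not given. After that scaling 14 members were lower and 1 was higher, beside 8.07% lower and 6.64% higher of all tested genes, and the members' median was -0.49. Without PSMC3IP and PSME3IP1, 41 genes were tested, of which 22 were lower and 1 higher, and after scaling 13 lower and 1 higher. Of these 41 fold changes 39 were below 0, and 33 after scaling. In bulk RNA such as this, fewer cells of a type and less RNA per cell cannot be told apart.

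As a share of all summed FPKM, the 44 members took 0.721%, 0.666% and 0.651% in normoxia libraries 1, 2 and 3, and 0.436%, 0.436% and 0.349% in the hypoxia libraries. The highest hypoxia share was thus below the lowest normoxia share. For 32 tested members each hypoxia library lay below each normoxia library, and for 1 each lay above. Without PSMC3IP and PSME3IP1 these numbers were 31 and 1. Of all tested genes 34.9% and 9.25% were separated in these directions. The authors' deposited table, at the authors' own mark, lists 14 members as lower and 1 as higher, beside 8.72% and 4.75% of all genes listed. At a q-value under 0.05 there, 16 were lower and 1 higher, where all genes listed gave 6.88% and 6.84%. These shares from the authors' table are over 18060 genes, of which 10196 reached the level tested with limma. Of the 44 members 43 reached it. The authors' mark did not follow the q-value alone. PSMD10 was marked at a q-value of 0.05598 in the authors' deposited table, and PSMD4 was not at 0.02795. Every marked member had an authors' log2 fold change beyond 1 in size. PSMD10 had -1.042 there, and PSMD4 had -0.9748. The limma count of lower members depended on single libraries. Leaving out normoxia library 1 gave 13, normoxia library 2 gave 11 and normoxia library 3 gave 15. For the hypoxia libraries the counts were 16, 23 and 26. The count over all 10196 tested genes, 2148 with every library, moved too. It was 1186, 798 and 1030 without normoxia library 1, 2 or 3, and 1060, 2314 and 3186 without hypoxia library 1, 2 or 3. In all 6 of these fits 11 members were called lower and 1 higher, where 7.51% and 3.1% of all tested genes were; the members were PSMA7, PSMB2, PSMB3, PSMB4, PSMC1, PSMC4, PSMC5, PSMD2, PSMD4, PSMD11 and PSMG1 as lower and PSME2 as higher; after scaling PSMB4 and PSMC5 no longer passed.

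**Figure D1:**
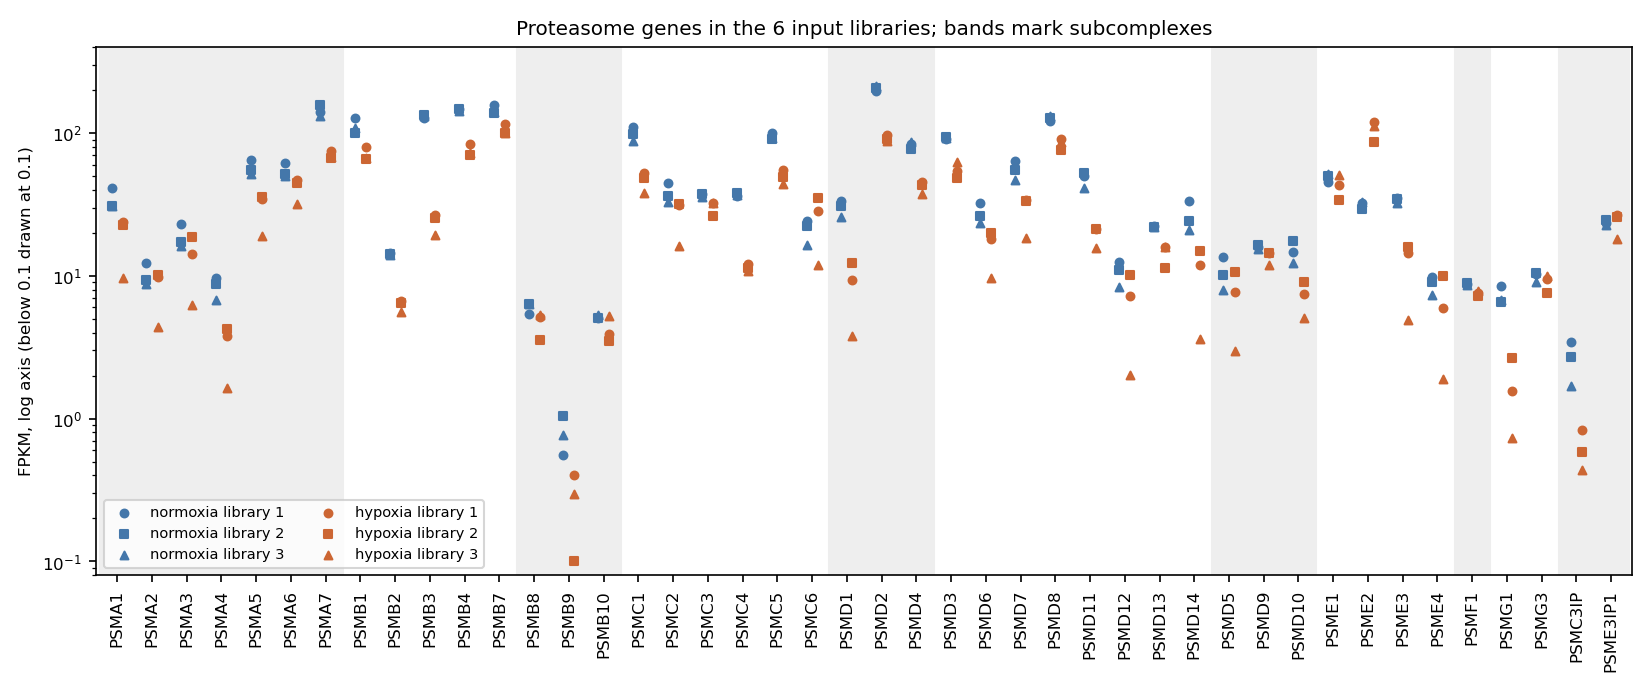
FPKM of the 44 genes (log axis; values below 0.1 are drawn at 0.1) in the 3 normoxia libraries (blue) and the 3 hypoxia libraries (orange), grouped by subcomplex in alternating bands. In most genes the orange points lie under the blue ones, PSME2 shows the reverse, and hypoxia library 3 (orange triangle) lies well under the other hypoxia libraries in 12 tested genes.

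Hypoxia library 3 stood apart from the other hypoxia libraries. As a percentage of the mean of hypoxia libraries 1 and 2, its FPKM had a median of 74.1% over the tested members, from 23.3% to 142%, and of 83.5% over all tested genes. It was under 50% for 12 members, while 27.7% of all tested genes were, and at 80% or more for 20 members. Without it 26 members were lower and 2 higher (all tested genes 31.2% and 11.2%), with a median log2 fold change of -0.62 beside -0.17 over all tested genes. Sequencing depth is unknown, since the table holds no counts, and summed FPKM ran from 294929 to 326804 per library. Granulosa cell markers, of which 8 of 11 were tested, summed to 337 to 535 FPKM in normoxia and 150 to 304 in hypoxia, with 2 lower as deposited but not after scaling (AMHR2 and FSHR), and CYP19A1, AMH and HSD17B1 were below the level tested. CYP11A1, the side-chain cleavage enzyme of steroid synthesis, carried most of that sum, with 254, 246 and 444 FPKM in normoxia and 85.2, 68.4 and 232 in hypoxia (adjusted p = 0.0612). Without it the markers summed to 83.2 to 90.9 FPKM in normoxia and 72.1 to 82.0 in hypoxia. The ratio of mean FPKM in hypoxia to normoxia was 0.934 for GATA4, 1.01 for INHA, 0.975 for INHBA and 0.816 for NR5A1, and none of these 4 passed the test. FOXL2 went from 6.83 ± 0.904 to 4.50 ± 0.338 FPKM without overlap, a ratio of 0.659 (limma, adjusted p = 0.0540). Without hypoxia library 3, 5 of the 8 tested granulosa markers were lower. Leukocyte markers summed to 6.10 to 9.16 FPKM in normoxia and 6.23 to 13.6 in hypoxia, and the 3 tested did not pass. Fibroblast and smooth muscle markers, led by ACTA2, summed to 7162 to 9056 FPKM in normoxia and 3493 to 4586 in hypoxia, with 2 of 6 lower and 2 higher. The endothelial marker PECAM1 went from 6.56 ± 0.327 to 2.81 ± 0.260 FPKM (adjusted p = 0.00414), while the other endothelial markers measured, VWF, KDR and TEK, had means of at most 0.119 FPKM and were not tested. The part of these shifts in the results below was not tested.

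**Figure D2:**
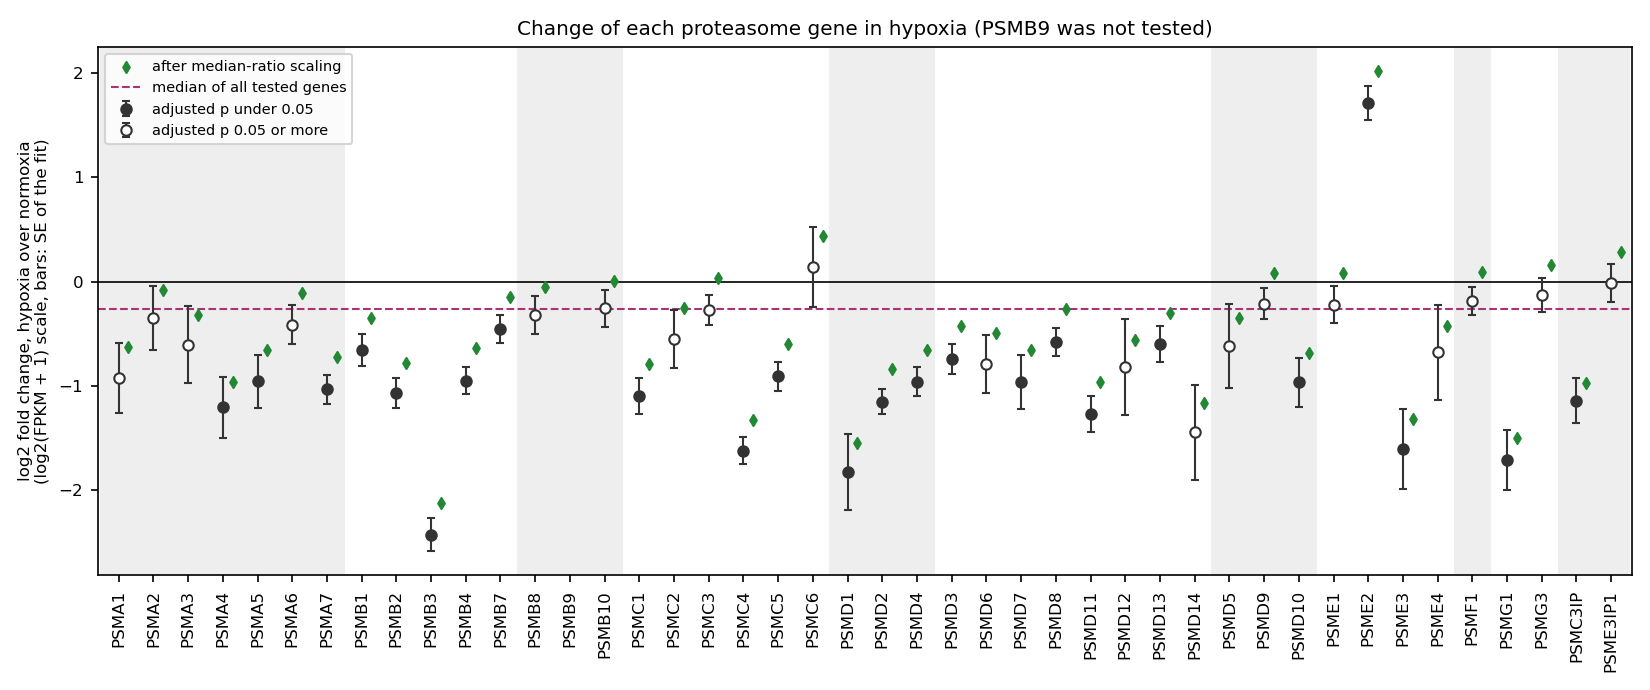
Log2 fold change of hypoxia over normoxia (log2(FPKM + 1) scale) of each tested gene with the SE of the limma fit; filled points passed an adjusted p of 0.05, green diamonds show the value after median-ratio scaling and the dashed line the median of all tested genes, -0.26. Of the 43 points 41 lie below 0 as deposited, beside 72.2% of all tested genes, and 34 lie below 0 after scaling. PSMB3 is lowest at -2.43 and PSME2 highest at 1.71.

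The proteasome genes were among the well-expressed genes of these cells: 29 of the 43 tested lay above the 75th percentile of normoxia FPKM and 40 above the median. They are scattered over 14 chromosomes of the Sscrofa11.1 build, with few close neighbours. PSMB8 and PSMB9 lie 121 bases apart on chromosome 7, and PSME2 and PSME1 lie 2895 bases apart on the same chromosome, each pair on opposite strands. The other short gaps were PSMB4 to PSMD4 (156143 bases, chromosome 4), PSME3 to PSMC3IP (208746 bases, chromosome 12) and PSMD3 to PSMB3 (986432 bases, chromosome 12). Genes on the opposite strand overlap several members, and reads of such pairs can be split only where strand was used: PDE3B, at most 0.168 FPKM in any library, overlaps 71.4% of the span of PSMA1, NRDE2 (2.71 ± 0.0825 FPKM in normoxia) 24% of PSMC1, and SS18L1 (1.01 ± 0.0873 FPKM) 13.6% of PSMA7.

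In the core particle, 8 of the 12 alpha and constitutive beta genes were lower in hypoxia, with a median log2 fold change of -0.94; 4 of them passed after scaling and 9 without hypoxia library 3. The median FPKM of these 12 genes was 63.1, 53.2 and 50.5 in the normoxia libraries and 30.6, 30.5 and 19.1 in the hypoxia libraries. All 12 fold changes were below 0, as deposited and after scaling, where 72.2% of all tested genes were below 0 as deposited.

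Of the 7 alpha ring genes, 3 were lower (PSMA4, PSMA5 and PSMA7) and 4 did not pass, with a median of -0.92; after scaling 2 passed. PSMA7, the most abundant alpha gene, had 141, 158 and 132 FPKM in normoxia and 74.8, 66.3 and 67.4 in hypoxia, with every hypoxia library far below every normoxia library. Its log2 fold change was -1.03 (SE 0.14, adjusted p = 0.00244, limma), and -0.72 after scaling (adjusted p = 0.0415). PSMA4, the counterpart of the yeast subunit whose tail holds the gate of the core closed, had the largest fall of the ring. It had 9.63, 8.82 and 6.77 FPKM in normoxia and 3.81, 4.25 and 1.63 in hypoxia. The groups did not overlap, and the fold change was -1.20 (SE 0.29, adjusted p = 0.0227), but the call was lost without normoxia library 1, 2 or 3 or hypoxia library 1 (adjusted p 0.0517 to 0.0967). PSMA5 went from 56.7 ± 6.76 to 29.7 ± 9.37 FPKM (mean ± SD, n = 3 libraries), with an adjusted p of 0.0327 that became 0.0707 after scaling and 0.0624 to 0.120 without any one of the same 4 libraries.

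PSMA2 changed least in the alpha ring, with 12.3, 9.34 and 8.78 FPKM in normoxia and 9.87, 10.1 and 4.35 in hypoxia. Hypoxia libraries 1 and 2 fell within the normoxia range and library 3 below it, and the fold change was -0.35 (adjusted p = 0.456). PSMA1 (34.4 ± 6.10 to 18.8 ± 7.87 FPKM, adjusted p = 0.0876), PSMA3 (18.9 ± 3.75 to 13.1 ± 6.37, adjusted p = 0.277) and PSMA6 (54.5 ± 6.5 to 41.1 ± 8.31, adjusted p = 0.162) did not pass either. PSMA1 passed without hypoxia library 3 (adjusted p = 0.0208). Hypoxia library 3 was a median of 43.6% of the mean of hypoxia libraries 1 and 2 over the alpha genes, from 37.7% for PSMA3 to 95.6% for PSMA7.

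All 5 constitutive beta genes with a symbol in the table were lower in hypoxia, with a median of -0.95; 2 of them, PSMB2 and PSMB3, passed after scaling, and all 5 without hypoxia library 3. PSMB3, a structural subunit without an active site, fell further than any other member. It lies on chromosome 12 from 23346978 to 23357615. PSMB3 had 128, 134 and 131 FPKM in normoxia and 26.8, 25.2 and 19.3 in hypoxia, so hypoxia held 0.182 of the normoxia mean. The fold change of -2.43 (SE 0.16, adjusted p = 0.000230) was exceeded in size by 13 of all tested genes that fell, remained at -2.12 after scaling (adjusted p = 0.000292), and passed whichever library was left out (highest adjusted p = 0.00502). In the authors' deposited table its log2 fold change is -2.461 with a q-value of 1.177e-14.

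PSMB4, another structural subunit, had 148, 148 and 143 FPKM in normoxia and 83.8, 69.7 and 72.7 in hypoxia. The groups were far apart relative to their spread (fold change -0.95, SE 0.13, adjusted p = 0.00297), though the call was lost after scaling (adjusted p = 0.0661). PSMB2 went from 14.1 ± 0.235 to 6.25 ± 0.577 FPKM (fold change -1.07, adjusted p = 0.00244, and 0.0151 after scaling). PSMB1 went from 112 ± 14 to 70.7 ± 7.56 FPKM (adjusted p = 0.0194, and 0.317 after scaling), and lost its call without normoxia library 1, 2 or 3 (0.0565 to 0.0852). PSMB7, which carries the trypsin-like active site, had the smallest fall of the ring and the highest FPKM over the 6 libraries. It had 156, 137 and 139 FPKM in normoxia and 116, 99.4 and 99.8 in hypoxia. The fold change was -0.46 (SE 0.14, adjusted p = 0.0448), became -0.14 after scaling (adjusted p = 0.679), and did not pass when any library other than hypoxia library 3 was left out (0.0778 to 0.170).

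A gene without a symbol that the table describes as the proteasome beta 6 subunit (ENSSSCG00000017913, outside the naming rule) carries another catalytic site. It went from 102 ± 0.864 to 56.7 ± 6.79 FPKM in hypoxia, and the fold change of -0.84 (SE 0.14, adjusted p = 0.00572) did not pass after scaling (adjusted p = 0.160). PSMB5, which carries the chymotrypsin-like site, was not analysed here, nor were PSMA8 and PSMB11.

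Inducible catalytic subunits replace the constitutive ones in the immunoproteasome, a form induced by interferon that favours peptides for antigen presentation. The 3 genes were expressed at low levels, and 0 of the 2 tested passed by limma, at an adjusted or an unadjusted p under 0.05, or at a q-value under 0.05 in the authors' deposited table. PSMB8 had 5.41, 6.34 and 6.35 FPKM in normoxia and 5.15, 3.55 and 5.36 in hypoxia, just separated (fold change -0.32, SE 0.19, adjusted p = 0.254). PSMB10 had 5.10, 5.03 and 5.29 FPKM in normoxia and 3.89, 3.47 and 5.23 in hypoxia, where hypoxia library 3 lay within the normoxia range (fold change -0.25, adjusted p = 0.339). PSMB9 was below the level tested, with 0.557, 1.05 and 0.768 FPKM in normoxia and 0.406, 0.000536 and 0.296 in hypoxia; 79.7% of its span overlaps TAP1 on the opposite strand.

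The summed FPKM of these 3 genes, as a percentage of that of PSMB7 and the beta 6 gene together, was 4.29%, 5.18% and 5.16% in normoxia and 5.34%, 4.74% and 6.81% in hypoxia. The ranges overlapped, and the ratio of the means, 1.15, was 1.03 without hypoxia library 3. PSMB5, the other constitutive catalytic gene, is not in the sum below the line, so the percentages run higher than they would with it. PSMB10 as a percentage of its constitutive counterpart PSMB7 was 3.27%, 3.67% and 3.79% in normoxia and 3.36%, 3.49% and 5.24% in hypoxia. Here too the values overlapped apart from hypoxia library 3.

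In the regulatory particle, 11 of the 17 base and lid genes were lower in hypoxia, with a median of -0.91; 6 passed after scaling, and 13 were lower and 1 higher without hypoxia library 3. The median FPKM of the 17 was 44.4, 37.9 and 37.1 in normoxia and 31.3, 31.9 and 16.1 in hypoxia.

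Of the 6 ATPases, which unfold substrates and open the gate of the core, PSMC1, PSMC4 and PSMC5 were lower and 3 did not pass, with a median of -0.73. PSMC4 had 36.4, 37.9 and 37.1 FPKM in normoxia and 12.1, 11.3 and 10.8 in hypoxia. Both groups were tight and lay about 1.62 log2 units apart (fold change -1.62, SE 0.13, adjusted p = 0.000461; 0.00260 after scaling). PSMC1 was the most abundant ATPase gene. Its FPKM were 111, 98.8 and 88.4 in normoxia and 52.4, 48.3 and 37.8 in hypoxia, with no overlap (fold change -1.09, adjusted p = 0.00468; 0.0223 after scaling). PSMC5 went from 93.7 ± 4.88 to 49.6 ± 5.65 FPKM (adjusted p = 0.00439, and 0.0615 after scaling).

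PSMC6 stood against this fall. It had 24.3, 22.4 and 16.3 FPKM in normoxia and 28.4, 35.3 and 11.9 in hypoxia. Hypoxia libraries 1 and 2 lay above every normoxia library and hypoxia library 3 below every one, so with all libraries the fold change was 0.14 (SE 0.39, adjusted p = 0.830), and without hypoxia library 3 it was 0.59 (adjusted p = 0.0229). Its partners PSMC2 (37.8 ± 5.97 to 26.4 ± 8.98 FPKM, adjusted p = 0.198) and PSMC3 (36.7 ± 1.09 to 30.4 ± 3.50, adjusted p = 0.207) did not pass. The ATPases form a ring of equal numbers of each subunit, and in these libraries their fold changes ran from -1.62 to 0.14.

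All 3 non-ATPase subunits of the base were lower, as deposited, after scaling and without hypoxia library 3, with a median of -1.15. PSMD2, the docking scaffold for ubiquitin shuttle factors, lies on chromosome 13 from 122187466 to 122199400 and had the highest normoxia FPKM of all members. It had 197, 207 and 212 FPKM in normoxia and 96.5, 91.1 and 88.3 in hypoxia, less than 50% of the lowest normoxia value in every library (fold change -1.15, SE 0.12, adjusted p = 0.00108; 0.0223 after scaling). PSMD4, a ubiquitin receptor, had 83.9, 77.5 and 86.6 FPKM in normoxia and 45.3, 43.5 and 37.4 in hypoxia. These did not overlap (fold change -0.96, adjusted p = 0.00339; 0.0454 after scaling). PSMD1, the other large scaffold, had 33.3, 30.9 and 26 FPKM in normoxia and 9.32, 12.4 and 3.80 in hypoxia. Its fold change was -1.83 (SE 0.36, adjusted p = 0.0114, the same after scaling), and the call was lost without normoxia library 1 (0.0508) or 2 (0.0573).

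Of the 8 lid genes 5 were lower (PSMD3, PSMD7, PSMD8, PSMD11 and PSMD13) and 3 did not pass, with a median of -0.80; 1, PSMD11, passed after scaling and 7 without hypoxia library 3. PSMD11, a subunit that braces the lid against the core, went from 47.9 ± 5.72 to 19.4 ± 3.20 FPKM (fold change -1.27, SE 0.18, adjusted p = 0.00301; 0.00831 after scaling). PSMD14, the deubiquitinase of the lid, had the most negative fold change there but did not pass. It had 33.5, 24.4 and 20.9 FPKM in normoxia and 12.0, 14.9 and 3.62 in hypoxia, with no overlap (fold change -1.44, SE 0.46, adjusted p = 0.0570). Without hypoxia library 3 its fold change was -0.90 with an adjusted p of 0.00342, and without hypoxia library 2 the adjusted p was 0.0215.

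PSMD8 had the smallest change and the highest FPKM of the lid, 121, 127 and 131 in normoxia and 90.7, 75.5 and 87.1 in hypoxia. The separation held in every library (fold change -0.58, adjusted p = 0.0186), but the call was lost after scaling (0.469) and without normoxia library 1, 2 or 3 or hypoxia library 1 (0.0523 to 0.0894). PSMD3 went from 92.4 ± 1.57 to 55.2 ± 7.03 FPKM (adjusted p = 0.00932; 0.272 after scaling; 0.0558 without normoxia library 2). PSMD7, the partner of PSMD14, went from 55.3 ± 8.08 to 28.7 ± 8.85 FPKM (adjusted p = 0.0327; 0.0711 after scaling; 0.0552 to 0.120 without normoxia library 1, 2 or 3 or hypoxia library 1). PSMD13 went from 22.1 ± 0.183 to 14.4 ± 2.67 FPKM (adjusted p = 0.0382), and passed neither after scaling (0.470) nor when any library other than hypoxia library 3 was left out (0.0675 to 0.138). PSMD6 (27.3 ± 4.41 to 16 ± 5.56 FPKM, adjusted p = 0.0808) and PSMD12 (10.5 ± 2.09 to 6.42 ± 4.09, adjusted p = 0.244) did not pass; PSMD6 did without hypoxia library 2 (0.0393) or 3 (0.0304).

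Among the 3 chaperones of the base, PSMD10, also known as gankyrin, was lower and the others did not pass. PSMD10 had 14.8, 17.5 and 12.3 FPKM in normoxia and 7.51, 9.08 and 5.07 in hypoxia, without overlap (fold change -0.97, SE 0.23, adjusted p = 0.0219; 0.0428 after scaling). That call was lost without normoxia library 1 or 2 or hypoxia library 1 (0.0704 to 0.102). PSMD9 had 15.8, 16.4 and 15.4 FPKM in normoxia and 14.5, 14.5 and 11.9 in hypoxia, a small shift (fold change -0.21, adjusted p = 0.335). PSMD5 had 10.5 ± 2.77 FPKM in normoxia and 7.08 ± 3.83 in hypoxia (adjusted p = 0.305).

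The chaperone of the core PSMG1, which starts the assembly of the alpha ring, was lower while PSMG3, which acts beside it, did not pass. PSMG1 had 8.51, 6.60 and 6.79 FPKM in normoxia and 1.55, 2.66 and 0.726 in hypoxia. Every hypoxia library was under 50% of every normoxia library, and the fold change was -1.71 (SE 0.29, adjusted p = 0.00621; 0.00648 after scaling; highest adjusted p with any library left out 0.0338). PSMG3 had 10.3, 10.4 and 9.02 FPKM in normoxia and 9.47, 7.55 and 10.002 in hypoxia, which overlapped (fold change -0.13, adjusted p = 0.605). A gene without a symbol described in the table as assembly chaperone 2 (ENSSSCG00000031730), the partner of PSMG1, had 7.00 ± 0.991 FPKM in normoxia and 3.82 ± 1.24 in hypoxia (adjusted p = 0.0550).

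The activators went apart. PSME2, 1 of the 2 subunits of the interferon-inducible cap that opens the core without ATP, was the sole member that rose with all 6 libraries in the fit. It lies on chromosome 7 from 75153965 to 75157870. Its FPKM were 32.1, 29.4 and 32.9 in normoxia and 120.1, 85.9 and 113 in hypoxia. Every hypoxia library lay far above every normoxia library, and the means were 31.5 ± 1.86 and 106 ± 18.0 FPKM (SD, n = 3), a ratio of 3.37. The fold change was 1.71 (SE 0.16, adjusted p = 0.000831) and 2.02 after scaling (adjusted p = 0.00203), the highest adjusted p with any library left out was 0.0108, and 148 of all tested genes rose more. The authors' deposited table gives 1.755 with a q-value of 3.403e-11.

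PSME1, the partner of PSME2 in the same heptameric cap, did not rise. PSME1 had 45.7, 50.3 and 51.8 FPKM in normoxia and 43, 34 and 50.8 in hypoxia, which overlapped (fold change -0.22, SE 0.18, adjusted p = 0.405). The ratio of PSME2 to PSME1 was therefore 0.703, 0.584 and 0.635 in normoxia and 2.79, 2.53 and 2.22 in hypoxia. In normoxia PSME1 was the more abundant per length in every library, and in hypoxia PSME2 was. All 3906 bases of PSME2 lie within the span of RNF31 on the opposite strand, and no label says whether fragments were counted by strand, so the 2 genes' reads may not have been kept apart. RNF31 itself had 5.34 ± 0.403 FPKM in normoxia and 5.11 ± 1.56 in hypoxia (adjusted p = 0.821). EMC9, which overlaps 26.3% of PSME1 on the opposite strand, had 10.03 ± 0.839 and 11.7 ± 1.97 FPKM (adjusted p = 0.444).

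**Figure D3:**
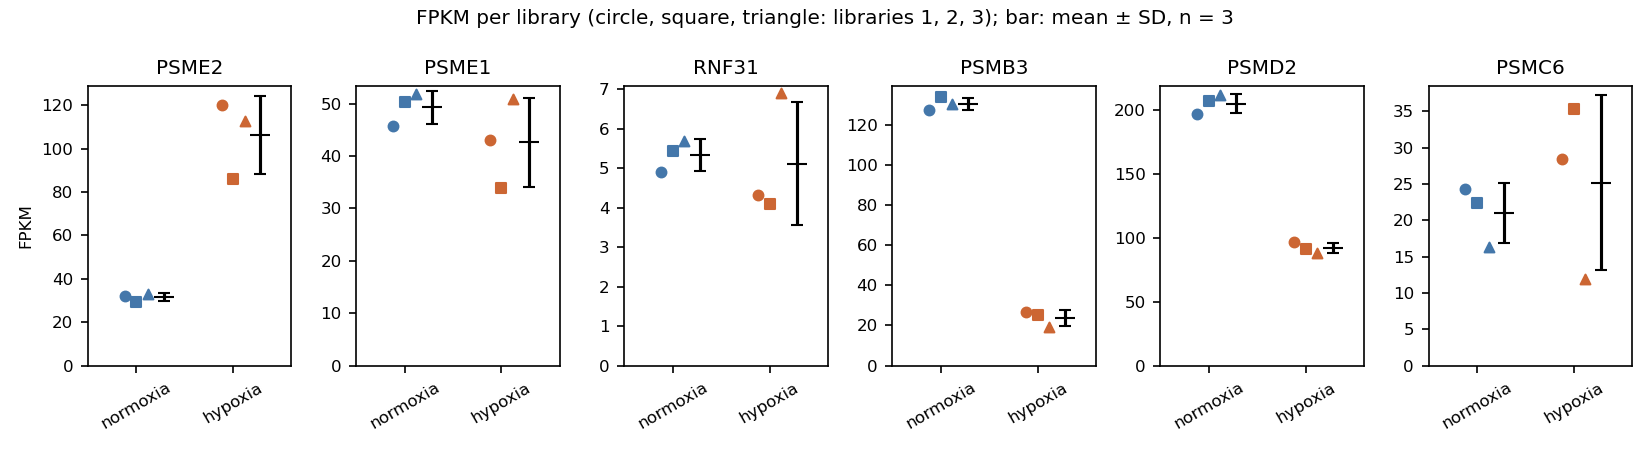
FPKM per library (circle, square and triangle for libraries 1, 2 and 3) of PSME2, its partner PSME1, RNF31 (which spans PSME2 on the opposite strand), PSMB3, PSMD2 and PSMC6, with mean ± SD over 3 libraries; each panel has its own axis from 0. PSME2 rises from 31.5 to 106 FPKM while RNF31 has 5.34 and 5.11, PSMB3 and PSMD2 fall without overlap, and PSMC6 splits by library.

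PSME3, the nuclear cap, had 35.3, 34.6 and 32.6 FPKM in normoxia and 14.5, 15.9 and 4.92 in hypoxia. The groups lay far apart (fold change -1.60, SE 0.39, adjusted p = 0.0223; 0.0275 after scaling), but the call was lost without normoxia library 1, 2 or 3 (0.0693 to 0.0886). PSME4, the large single-chain cap, had 9.79, 9.01 and 7.34 FPKM in normoxia and 5.97, 10.02 and 1.88 in hypoxia. These values overlapped and scattered widely in hypoxia (fold change -0.68, SE 0.45, adjusted p = 0.326). The inhibitor PSMF1 was nearly level, with 8.76, 8.86 and 8.57 FPKM in normoxia and 7.64, 7.18 and 7.86 in hypoxia, separated but by little (fold change -0.19, SE 0.13, adjusted p = 0.362). A gene on the other strand within its span, TMEM74B, had 0, 0.0902 and 0.0720 FPKM in normoxia and 8.34, 5.65 and 9.21 in hypoxia, and so reached the level tested only through the hypoxia libraries.

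Of the pair not counted as parts of the proteasome, PSMC3IP, a meiotic recombination factor, was lower and PSME3IP1, a binding partner of PSME3, was level. PSMC3IP had 3.46, 2.70 and 1.70 FPKM in normoxia and 0.831, 0.580 and 0.438 in hypoxia, without overlap (fold change -1.14, SE 0.22, adjusted p = 0.0100; 0.0551 without normoxia library 2). It passed the filter on low values only through its normoxia libraries, so its call supports nothing about the members. PSME3IP1 had 23.5, 24.6 and 22.7 FPKM in normoxia and 26.8, 26 and 18.1 in hypoxia, which overlapped (fold change -0.01, adjusted p = 0.967).

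Levels within each particle were unequal, although the subunits are built in with equal numbers. The highest core gene exceeded the lowest, PSMA4, by 16.2, 17.9 and 21.1 times in the normoxia libraries and by 30.4, 23.4 and 61.3 times in the hypoxia libraries. Each hypoxia value lay above each normoxia value. In the regulatory particle, PSMD2 exceeded PSMD12 by 15.8, 19.0 and 25.5 times in normoxia and by 13.5, 9.02 and 44.0 times in hypoxia. There the ranges overlapped, with hypoxia libraries 1 and 2 below the normoxia range and hypoxia library 3 above it.

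The members that were low in hypoxia library 3 were largely those that were lower in normoxia library 3 than in normoxia library 1. Over the 43 tested members the log2 ratio of normoxia library 3 to 1 and that of hypoxia library 3 to the mean of libraries 1 and 2 had a Pearson's r of 0.755 and a Spearman's rho of 0.818, as a description across genes that share these libraries. Over 10150 tested genes with a value in every library they were 0.720 and 0.788, so the relation was not particular to the proteasome. The lowest percentages in hypoxia library 3 were those of PSMD12 (23.3%), PSME4 (23.5%), PSMD14 (26.9%) and PSME3 (32.4%), and the highest those of PSMB10 (142%), PSME1 (132%) and PSMB8 (123%). Among tested members the percentage had a Spearman's rho of -0.47 with the length of the gene's span and 0.27 with normoxia FPKM; over all tested genes these were -0.34 and 0.26.

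**Figure D4:**
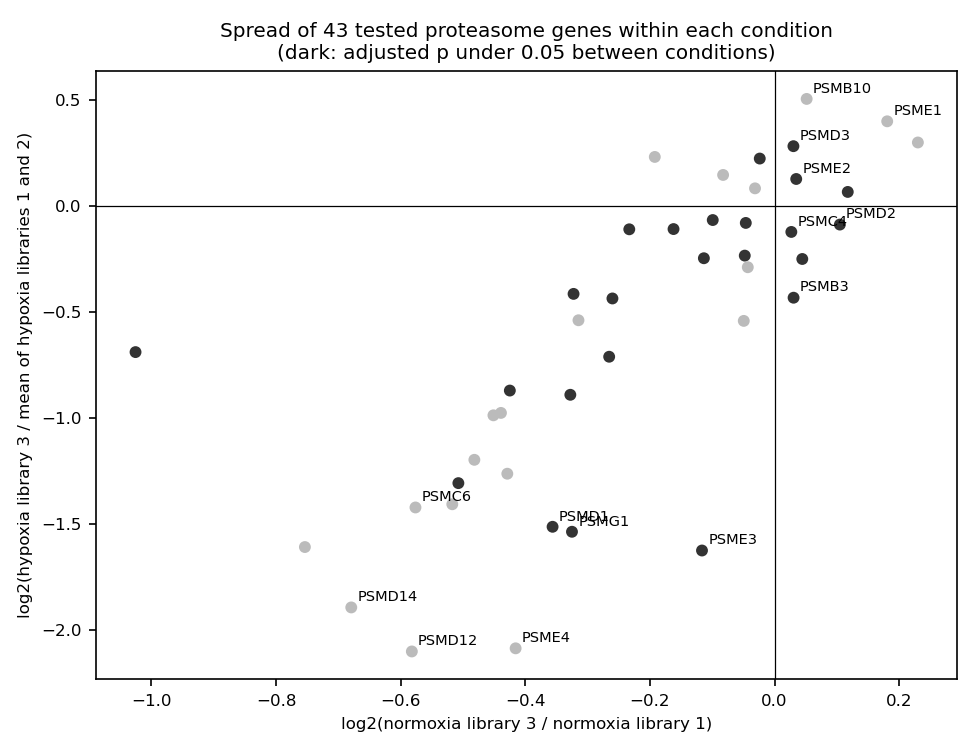
Log2 ratio of normoxia library 3 to normoxia library 1 (x axis) against that of hypoxia library 3 to the mean of hypoxia libraries 1 and 2 (y axis) for the 43 tested genes; dark points passed an adjusted p of 0.05 between conditions. The points run from PSMD12, PSMD14 and PSME4 at the lower left to PSMB10 and PSME1 at the upper right (Spearman's rho 0.818).

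Genes that work with the proteasome but lie outside the naming rule were counted apart. Of 12 partners, 11 were tested, 2 were lower and 9 did not pass, with a median of -0.51. Among all tested genes 21.1% were lower, with a median of -0.26. Neither of the lower partners passed after scaling. ADRM1, a ubiquitin receptor of the base, went from 38.8 ± 5.47 to 19.0 ± 2.39 FPKM (fold change -0.99, adjusted p = 0.00587; 0.0991 after scaling). ZFAND2A, a stress-induced adaptor, went from 3.89 ± 0.205 to 2.15 ± 0.440 FPKM (adjusted p = 0.0317; 0.262 after scaling, and 0.0644 to 0.127 without any library other than hypoxia library 3). POMP, the maturation protein of the core, had 26 ± 1.84 FPKM in normoxia and 14.7 ± 4.88 in hypoxia (adjusted p = 0.0507, and 0.00820 without hypoxia library 3). SEM1, the smallest lid subunit, was not analysed here.

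NFE2L1 codes for the transcription factor that raises proteasome genes when proteasome activity is low. It had 66.1, 76.4 and 78.6 FPKM in normoxia and 51.5, 52.7 and 60.3 in hypoxia. The groups were separate, and the fold change was -0.42 (SE 0.14, adjusted p = 0.0674, and 0.0158 without hypoxia library 3). Its relative NFE2L2 had 14.1, 14.3 and 14.2 FPKM in normoxia and 8.84, 13.9 and 3.92 in hypoxia (adjusted p = 0.185, and 0.0282 without hypoxia library 2). Of the 7 tested genes of this axis 1 was higher and 1 lower, beside 5.4% and 21.1% of all tested genes, with a median of -0.52. MAFF, a small MAF partner of both factors, rose from 3.56 ± 0.857 to 11.3 ± 2.53 FPKM (fold change 1.43, adjusted p = 0.00489; 0.00812 after scaling). KEAP1, the adaptor that marks NFE2L2 for degradation, fell from 17.0 ± 1.16 to 11.5 ± 0.693 FPKM (adjusted p = 0.0314; 0.523 after scaling, and 0.0672 to 0.138 without any library other than hypoxia library 3).

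Of 14 genes for ubiquitin, its activating enzymes and shuttle factors, 5 were lower and 9 did not pass, beside 21.1% lower of all tested genes. The median of the 14 was -0.27, close to that of all tested genes. NPLOC4, a cofactor of the segregase VCP, fell from 27.0 ± 1.83 to 8.55 ± 0.742 FPKM (fold change -1.55, adjusted p = 0.000738; 0.00296 after scaling). UBQLN4 (fold change -0.62, adjusted p = 0.0273), VCP (-0.56, adjusted p = 0.0344) and UFD1 (-0.54, adjusted p = 0.0401) were lower as deposited only, and each lost its call without some single libraries (adjusted p up to 0.156). The ubiquitin gene UBB was level at 624 ± 68.2 and 631 ± 61.3 FPKM (adjusted p = 0.948).

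PSME2 and the inducible beta genes are known to take part in interferon response and antigen presentation. Of 11 tested genes of that group, 1 was higher and 3 were lower, beside 5.4% and 21.1% of all tested genes. Their median was -0.33. The higher gene was GBP1, an interferon-induced GTPase, with 0.936, 0.595 and 0.727 FPKM in normoxia and 3.61, 4.77 and 1.83 in hypoxia. It reached the level tested only through the hypoxia libraries, so its call supports nothing about the group. MX1, an antiviral GTPase, fell from 25.4 ± 3.75 to 11.5 ± 0.555 FPKM (fold change -1.07, adjusted p = 0.00347; 0.0378 after scaling). The peptide transporter genes TAP2 (8.07 ± 0.795 to 3.56 ± 0.165 FPKM, adjusted p = 0.00400; 0.0393 after scaling) and TAP1 (5.39 ± 1.21 to 2.91 ± 0.211, adjusted p = 0.0320; 0.232 after scaling) fell as deposited; without any library other than hypoxia library 3, TAP1 did not pass (0.0506 to 0.127). IFIT1, IFIT3, MX2 and NLRC5 were below the level tested.

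The authors' m6A peak lists, 1 per condition, hold 25346 peaks in normoxia and 24444 in hypoxia, and each peak's log2 enrichment of the antibody library over input is the authors' value. Of the 44 members, 38 had a peak in the normoxia list and 28 in the hypoxia list, that is 86.4% and 63.6%. Among all tested genes the shares were 85.8% and 79.8%. All 28 had peaks in both lists and 10 in the normoxia list alone, which is 26.3% of the members with a normoxia peak, where it was 9.89% of all tested genes with one. These 10 were PSMA1, PSMA2, PSMA5, PSMA6, PSMB3, PSMB4, PSMD9, PSMD10, PSMD12 and PSMD14. Their hypoxia FPKM ran from 6.42 to 75.4 with a median of 16.2, and that of members with a peak in both lists from 0.616 to 106 with a median of 24.4. PSMB2, PSMB9, PSMD6, PSMD8, PSMD13 and PSMG3 had a peak in neither list. Since the lists are 1 per condition, none of these counts has a replicate check, and the part of input level in them was not tested.

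The members had 57 normoxia peaks and 41 hypoxia peaks. In the normoxia list 24 (42.1%) lay in 3′ UTRs, 17 (29.8%) in 5′ UTRs and 16 (28.1%) in other exons. Of all peaks of that list these regions held 45.8%, 17.1% and 32.8%. In the hypoxia list 19 (46.3%), 13 (31.7%) and 9 (22%) lay there, beside 43.7%, 15.9% and 35.8% of all peaks. Of the 57 normoxia peaks 35 overlapped a hypoxia peak of the same gene by at least 1 base, and 38 of the 41 hypoxia peaks overlapped a normoxia peak. Where the overlap had to cover 50% of both peaks, 27 of the 57 normoxia peaks remained. No share over the peaks of all genes is given for these overlaps. In the 38 pairs that overlapped by at least 1 base the enrichment was higher in the hypoxia list for 19 and lower for 19. The PSMC6 pair among them shares 1 base only, and the PSMA4, PSME3IP1 and PSMG1 normoxia peaks each enter more than 1 pair. These counts compare values as deposited, though the medians of all peaks differ, 2.08 in normoxia and 2.27 in hypoxia. They do not show how the pairs moved relative to their lists. Proteasome peaks were mostly shallow: their median log2 enrichment was 1.32 in normoxia and 1.70 in hypoxia, below the medians of all peaks, 2.08 and 2.27, and 9 peaks in each list lay above that list's median.

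One peak stood out. A 3′ UTR peak of the ubiquitin receptor gene PSMD4 at chr4:97994065-97994333 had a log2 enrichment of 8.74 in normoxia, rank 4 of the 25346 peaks, and the same interval had 7.36 in hypoxia, rank 19 of 24444. The next highest members were far below it. PSMD7 had 3.18 and 3.63 in its 3′ UTR, and PSME4 had 3.18 and 3.02 in its 3′ UTR. The riser PSME2 had a 5′ UTR peak at chr7:75153965-75154561 with 2.89 in normoxia and 3.36 in hypoxia; each of these values recurs in its list, for 831 and 443 peaks.

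**Figure D5:**
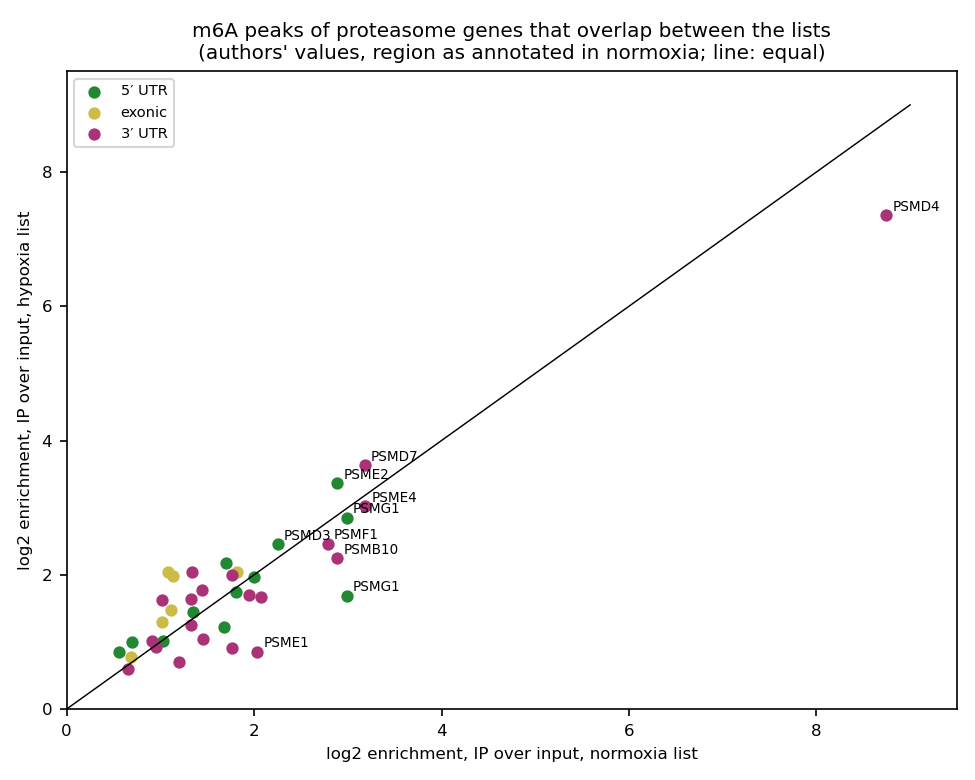
The authors' log2 enrichment of antibody over input in the normoxia list (x axis) and the hypoxia list (y axis). Points are the 38 pairs of m6A peaks of the members that overlap by at least 1 base, coloured by annotated region. The line marks equal values. The 3′ UTR peak of PSMD4 (8.74 and 7.36) stands far from all others, and 19 pairs lie above and 19 below the line.

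In the authors' deposited table of differential peaks, 7 of the 44 members (15.9%) had an entry, where 9.62% of all tested genes did, and 3 of the 44 (6.82%) had an entry with an adjusted p under 0.05, where 3.87% of all tested genes did. Positive values there are higher in hypoxia. PSMD4 had the smallest adjusted p, for a peak annotated to the 5′ UTR that spans chr4:97997397-98004658 (log2 difference -0.437, adjusted p = 4.57e-05 in the authors' deposited table), distinct from its strong 3′ UTR peak. Nearly the same interval, chr4:97997367-98004628, is annotated as exonic in the normoxia list. PSMB3, the gene whose mRNA fell most, had a lower 5′ UTR peak (-0.424, adjusted p = 0.0457, authors' deposited table). PSMD2 had a higher 3′ UTR peak (0.467, adjusted p = 0.0347, authors' deposited table) while its mRNA fell. The other entries of the authors' deposited table, with adjusted p of 0.0741 to 0.261, were all negative: PSMB4 -0.306, PSME1 -0.364, PSME3 -0.827 and PSMD10 -0.834. The beta 6 gene had -0.296 (adjusted p = 0.0295, authors' deposited table). PSME2 had no entry.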

How the data were processed

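RNA of primary porcine granulosa cells was profiled by MeRIP-seq in 12 libraries, 6 input and 6 m6A-enriched. The FPKM of the 6 input libraries are the authors' values, per the file headers. The deposited expression comparison holds the authors' log2 fold changes, p-values and q-values, and the deposited peak tables hold the authors' log2 enrichments or differences with p-values and adjusted p-values. The submitters' processing notes name HOMER 4.10, edgeR 4.1, StringTie 2.1.2, HISAT2 2.0.4, FastQC and fastp 0.19.4 and the build Sscrofa11.1. Neither the role of each tool, nor the use of strand in counting, nor how replicates entered the peak lists is given in the sources used.

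Input FPKM were compared with limma 3.58.1 in R 4.3.3 (trend, robust) on log2(FPKM + 1), a scale that understates the change of low genes. Genes reaching 1 FPKM in 3 or more libraries were tested, all in 1 fit, with Benjamini-Hochberg adjustment over the 10196 tested genes. The test was checked on simulated data with independent noise in each gene and library. There it recovered 48% of changes of 1 log2 unit and 81% of changes of 2. The real libraries share deviations across genes, which the simulation left out, so it does not give the rate of false calls in them. Low FPKM values did not fall on steps of whole reads (at most 4 of 1150 low genes shared a ratio between normoxia libraries 1 and 2), so depth is unknown and no counting interval is given. Median-ratio factors per library, from 0.751 for hypoxia library 3 to 1.15 for normoxia library 2, gave the alternative scaling; the others were another pseudocount, no filter, a replicate block, a plain limma fit, each library left out, the authors' own calls, stricter peaks and stricter overlap. Errors are SD over 3 libraries for FPKM and SE of the fit for fold changes.

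Values in every library are given for the members with the highest and lowest fold change and the highest FPKM of each subcomplex, for the inducible beta genes and activators, and for members with a differential peak; of the other lists, genes past the threshold and a few regulators are named, apart from some that are not reported here. UBB, RNF31, EMC9, PDE3B, NRDE2, SS18L1 and TMEM74B were named after their values were seen. The members and lists were chosen with earlier results of these data known. Symbols came from the deposited tables for 13660 genes and from a table of gene names for 120 more. Peak starts in the deposited tables count from 0 (3369 normoxia peaks begin 1 base before their gene and 0 at its start) and are given from 1. Of 519 positive differential peaks, 87 overlapped the hypoxia list alone and 1 the normoxia list alone, and of 687 negative ones 0 and 121, so positive values were read as higher in hypoxia. Promoter and protein sequences were not used here.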

Additional observations from a re-analysis of the deposited data

How the results depend on the processing

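Under every alternative run, no member's fold change that had passed the threshold changed sign. The count of members lower in hypoxia was 23 with limma on the FPKM as deposited. It was 14 after median-ratio scaling and ranged from 11 to 26 with 1 library left out. In the authors' deposited table it was 14 at the authors' own mark, which is another threshold, and 16 at a q-value under 0.05. It was 18 without the filter on low values (PSMA5, PSMB7, PSMD7, PSMD13 and PSME3 no longer passed) and 22 in the plain limma fit (without PSMB7). With scaling and hypoxia library 3 left out together, an alternative added after the data were seen, it was 21. The count of higher members, 1, was 2 without hypoxia library 3 and 2 in that combined fit (PSME2 and PSMC6), and ranged from 1 to 2 with one library left out. Over all tested genes the lower count of 2148 became 823 after scaling and ranged from 798 to 3186 with one library left out; the higher count of 551 ranged from 334 to 1143 and was 1845 in the combined fit. The members' median log2 fold change of -0.79 was -0.49 after scaling and -0.45 in the combined fit. Members with a differential m6A peak numbered 3 rather than 7 at an adjusted p under 0.05 (6.82% of the members), where the share of all tested genes fell from 9.62% to 3.87%. Replicate numbers did not pair the samples throughout: same-numbered libraries had correlations of deviations of 0.586, 0.0398 and 0.697, and 4 of 6 libraries correlated best with their own number; with the replicate block 26 members were lower and 1 higher, and over all tested genes 2768 and 695. For each of these shifts the cause was not tested, beyond the fewer libraries or other factors each setting uses. FPKM without counts give no measure of the precision of low genes such as PSMB9.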
